A study of Oryza sativa with 15 samples.

Results

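The regions described here are the differentially methylated regions (DMRs) that were called at identical positions in rice plants regenerated from tissue culture (CK) and in a transgenic line carried through seed to the T4 generation (pOsNAR2.1-OsNAR2.1). A region was kept when its chromosome, start, end and cytosine class were the same in the list of CK against the wild type and in the list of the transgenic line against the wild type. The regions were thus selected on the measured methylation differences of both groups from the wild type. This gave 380 shared DMRs, which were 7.42% of the 5122 DMRs of CK and 10.7% of the 3539 DMRs of pOsNAR2.1-OsNAR2.1. Across the 3 lists of the study there were 10592 distinct regions. The question was how the same stretch of DNA was methylated in T0 regenerants and in T4 plants of a transformed line when the 2 were compared directly.

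Methylation was measured by whole-genome bisulfite sequencing (WGBS) in shoots of 10-day-old seedlings, with 3 libraries in each of 4 groups. WYJ7 was the wild type, the japonica cultivar Wuyujing 7. CK plants were T0 plants of WYJ7, regenerated from callus on induction media without a transgene and originating from independent calli. The pOsNAR2.1-OsNAR2.1 plants were T4 descendants of 1 transformed T0 plant with 1 inserted copy of OsNAR2.1, a partner protein of nitrate transporters, under its own promoter. The SDWT plants were T4 segregants of the same T0 plant that had lost the transgene. The line, unlike CK, had passed through hygromycin selection and was grown from surface-sterilized seed in water, whereas CK plants were moved to water from root medium. Since CK plants differed from the transgenic line in generation, recent culture, selection, handling of the seedlings and the transgene together, these cannot be told apart in any comparison of the 2 groups. The line is 1 transformation event, so its 3 libraries say nothing about other transgenic lines.

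In plants, cytosines are methylated in the CG, CHG and CHH contexts, where H is any base but G. Methylation of CG sites is copied onto the new strand after DNA replication by a maintenance methyltransferase and can pass through meiosis to the progeny. CHH methylation is set up anew, in large part by RNA-directed DNA methylation. Passage through callus and regeneration is known to leave altered methylation in rice, part of which is inherited. Of the 380 shared DMRs, 378 were of the class CpG and 2 of the class CpH, the class for cytosines outside CG sites.

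Each value below is a methylation level in percent, the mean of the cytosine levels of a region in 1 library, and differences are in percentage points. The authors removed cytosines under a minimum read depth, but the number of reads behind the level of a region is unknown, so no counting interval could be given. Levels of exactly 0 were therefore read as listed. The regions were short, with a median width of 24 bp (quartiles 15 and 35) against 29 bp over all DMRs of CK and 28 bp over all DMRs of the line, and the median number of cytosines was 4 in all 3 sets. The number of cytosines was the same in both lists for 351 shared DMRs and differed for 29. Widening the match to any overlap of at least 1 bp in the same class gave 509 pairs, so that 129 overlapping pairs with different ends lay just outside the set.

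Among the CK libraries, CK-2 stood apart. CK-2 lay at least 20 points from the mean of the other CK libraries, while those lay within 20 points of each other, in 59 of the 284 shared DMRs of the same direction, against 13 for CK-1 and 19 for CK-3. In the line the same count was 26, 19 and 15 for libraries 1, 2 and 3. In WYJ7 it was 54, 39 and 35, so WYJ7-1 came close to CK-2. Across the 380 regions, which share chromosomes and libraries, the levels of CK-1 and CK-3 had Pearson's r = 0.942, whereas CK-2 had 0.736 with CK-1 and 0.740 with CK-3. The line libraries had 0.901 to 0.911 with each other and the WYJ7 libraries only 0.654 to 0.757. Whether this reflects the plant or the library was not tested.

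Taking each group mean against the WYJ7 mean, 164 of the 380 shared DMRs (43.2%) were hypermethylated in both CK and the line, and 120 (31.6%) were hypomethylated in both. A further 79 (20.8%) were hypomethylated in CK and hypermethylated in the line, and 15 (3.95%) were hypermethylated in CK and hypomethylated in the line. The direction was thus the same for 284 regions and opposite for 94. Below, the 79 are also called low in CK and high in the line, which is meant relative to WYJ7 and not as an absolute level. The remaining 2 regions had WYJ7 and the line at 0 in all libraries and had no direction in the line. They were the intronic region chr1:8204747-8204773 of OS01G0249200, with CK levels of 19.3%, 48.7% and 20%, and the exonic region chr9:8706239-8706259 of EPlOSAG00000028169, with CK levels of 19.9%, 0% and 0%.

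Hypermethylation made up 47.6% of the shared DMRs in CK against 28.6% of all CK DMRs, and 63.9% in the line against 76.9% of all its DMRs. These directions are a description and were not tested, because the contrasts against WYJ7 chose the regions and both contrasts used the same 3 WYJ7 libraries. By the group means, 256 shared DMRs differed from WYJ7 by at least 20 points in both CK and the line, 124 by less in at least 1 of them, and 26 of these by less than 10 points. The CK libraries did not overlap those of WYJ7 in 266 shared DMRs (70.0%), beside 61.4% over all CK DMRs. For the line this was 284 shared DMRs (74.7%), beside 74.7% over its whole list.

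**Figure D1:**
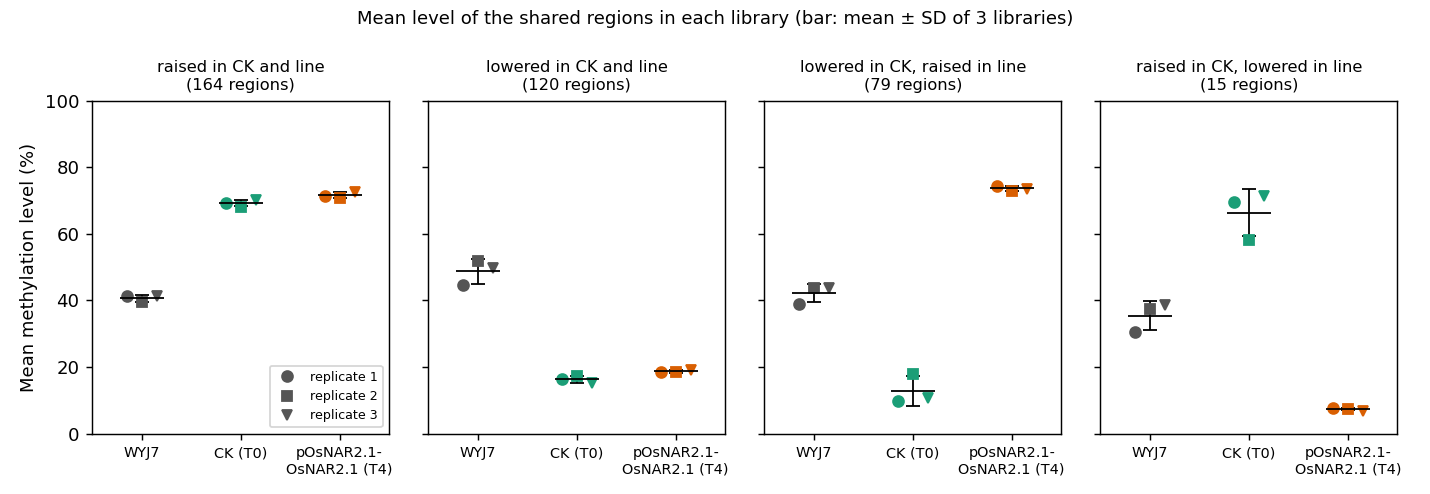
Mean methylation level (%) of the shared DMRs in each library of WYJ7, CK and pOsNAR2.1-OsNAR2.1, with 1 panel for each pair of directions against WYJ7. Points are libraries, horizontal lines with bars are the mean ± SD of 3 libraries. CK and the line lie within 2.4 points of each other in the 2 panels with the same direction and about 60 points apart in the others.

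In the 164 regions hypermethylated in both, the mean level was 40.7% ± 1.02 in WYJ7, 69.3% ± 1.03 in CK and 71.6% ± 0.965 in the line (SD over 3 libraries of the mean over regions). The line was 2.35 points above CK. Without CK-2 the directions left 159 regions in the class, and the difference was 0.0634 points. Levels close to full methylation were common, since all 6 CK and line libraries were at 80% or above in 40 regions. The 3 line libraries were at or above 80% in 66 regions and the 3 CK libraries in 48. In 14 regions all WYJ7 libraries were listed at 0.

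In the 120 regions hypomethylated in both, the mean level was 48.7% ± 3.76 in WYJ7, 16.4% ± 1.02 in CK and 18.8% ± 0.439 in the line (SD, n = 3 libraries), and the line was 2.38 points above CK. In 44 of them all 6 CK and line libraries were listed at 0. All 3 CK libraries were at 0 in 52 regions and all 3 line libraries in 48. In 58 regions none of the 6 libraries exceeded 20%. The mean differences between the line and CK carry no test, since they are means over chosen regions.

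Over the 284 regions of the same direction, the absolute difference between the line and CK had a median of 4.17 points (quartiles 1.37 and 10.7, largest 53.2). It was under 5 points in 160 regions, under 10 in 208 (73.2%) and at least 20 in 20. The same regions differed from WYJ7 by a median of 28.2 points in CK and 28.3 points in the line. The level was higher in the line in 141 regions, lower in 99 and equal in 44, and these 44 were the regions at 0 in all 6 libraries. The differences from WYJ7 selected the regions, and both groups had to lie on 1 side of WYJ7 here, so the smaller difference between the line and CK is not independent of the choice of regions and is given as a description. The 44 regions at 0 and the 40 at 80% or above in all 6 libraries left little room for a difference.

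**Figure D2:**
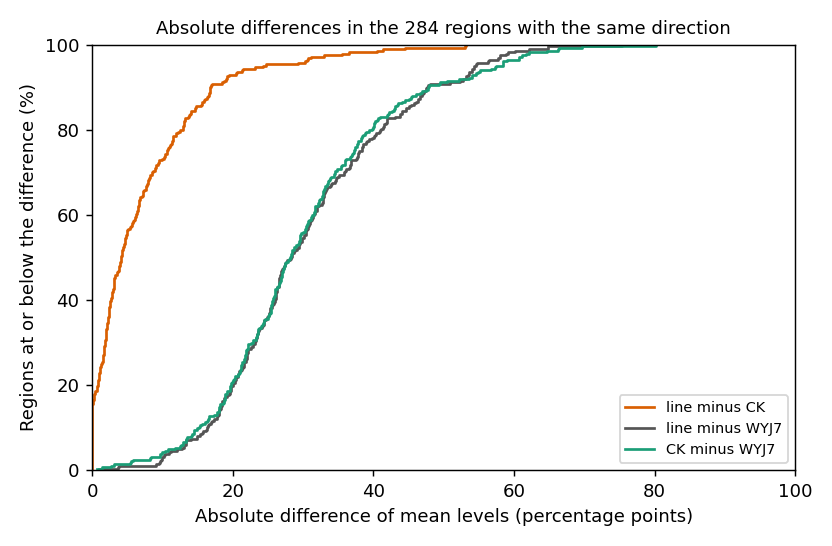
Cumulative share (%) of the 284 shared DMRs of the same direction against the absolute difference of group means (percentage points), for line minus CK, line minus WYJ7 and CK minus WYJ7. The line and CK differ by less than 10 points in 73.2% of the regions, and the 2 curves against WYJ7, which selected the regions, lie close together with medians of 28.3 and 28.2 points.

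All 3 line libraries were above all 3 CK libraries in 18 of the 284 regions (6.34%), and below them in 7 (2.46%), which left 259 whose libraries overlapped. These percentages are the background share of the same-direction regions, and over all 380 shared DMRs, where opposite directions fix many of the differences, they were 24.2% (92 regions) and 5.53% (21 regions). In a two-sided exact permutation test of 3 libraries against 3 the smallest possible p is 0.1, which each of the 25 regions without overlap (8.8%) reached. No single region can therefore pass 0.05. If CK and line libraries were interchangeable, a share of 0.1 of the regions without ties would also reach this p. The 8.8% seen does not exceed that share, so no excess of separated regions is shown. The libraries took part in choosing the regions, and the shares were not tested against each other. The study describes the CK plants as coming from independent calli and lists each WYJ7 library beside its own plant traits. For the line, neither the labels nor the methods make clear that libraries came from separate plants. These p-values therefore measure the spread between libraries, which may in part be technical. Among regions hypermethylated in both, 12 had the line above and 6 below CK, and among those hypomethylated in both, 6 and 1. With 2 libraries in 1 group overlap is rarer by construction. Leaving out CK-1, CK-2 or CK-3 gave 34, 32 or 35 regions above and 18, 28 or 15 below, and leaving out line library 1, 2 or 3 gave 31, 30 or 29 above and 14, 14 or 13 below.

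The upstream region chr2:18568835-18568896 of OS02G0515125 had the largest difference among the regions hypermethylated in both whose libraries did not overlap. Its level was 7.06%, 39.1% and 49.0% in the WYJ7 libraries, 25.1%, 71.4% and 27.8% in CK, and 84.1%, 87.2% and 86.8% in the line, and the line was 44.6 points above CK. The line libraries lay close together above all others, whereas CK-2 stood far above the other CK libraries, and CK-1 and CK-3 lay within the range of WYJ7. Upstream of OS08G0425200, chr8:20421760-20421774 had 36.9%, 20.5% and 6.06% in WYJ7, 45.6%, 23.6% and 44.2% in CK, and 91.0%, 71.6% and 75.0% in the line. Here the line was 41.4 points above CK, and CK-2 was the low CK library and overlapped WYJ7.

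Region chr4:24257607-24257623, with no annotated feature, had 23.2%, 19.1% and 23.2% in WYJ7, 65.9%, 45.8% and 20.1% in CK, and 76.8%, 78.0% and 70.4% in the line. The CK libraries spanned the gap from the wild-type level almost to that of the line. Region chr9:16737691-16737717, upstream of EPlOSAG00000042744, had 17.9%, 6.86% and 0% in WYJ7, 49.1%, 0% and 46.7% in CK, and 53.9%, 54.1% and 57.4% in the line. CK-2 was the only CK library at the wild-type level, and CK-1 and CK-3 lay just below the line. The intronic region chr7:26883016-26883067 of OS07G0645000 went the other way. It had 19.7%, 33.0% and 26.7% in WYJ7, 73.0%, 81.0% and 90.8% in CK, and 60.6%, 47.6% and 63.5% in the line, 24.3 points below CK. The 3 groups formed 3 separate ranges with the line in the middle.

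Among the regions hypomethylated in both, the 5 largest differences without overlap all had the line above CK. In this class that places the line mean between those of CK and WYJ7 by definition. Region chr2:30820322-30820372, with no annotated feature, had 84.7%, 87.8% and 82.8% in WYJ7, 0%, 14.7% and 0% in CK, and 65.3%, 60.0% and 48.3% in the line, so that the line was 53.0 points above CK. The 3 ranges were separate. Region chr10:22073587-22073602, upstream of OS10G0560400, had 72.9%, 74.5% and 64.9% in WYJ7, 29.2%, 0% and 31.9% in CK, and 63.8%, 47.0% and 42.3% in the line, a difference of 30.7 points. Region chr4:22405643-22405671, with no annotated feature, had 78.0%, 65.8% and 76.0% in WYJ7, 0%, 0% and 25.6% in CK, and 43.2%, 40.0% and 34.1% in the line, a difference of 30.5 points. In both, every library of the line lay between the ranges of CK and WYJ7.

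The next, chr1:34375282-34375309, had no annotated feature and levels of 80.2%, 77.9% and 63.5% in WYJ7, 15.9%, 15.0% and 13.9% in CK, and 19.1%, 37.3% and 49.9% in the line. The CK libraries agreed within 3 points, and the line libraries spread upwards from just above them. Region chr1:39117454-39117530, also without a feature, had 78.2%, 49.1% and 84.3% in WYJ7, 56.4%, 37.3% and 38.7% in CK, and 59.3%, 56.8% and 66.7% in the line. Here WYJ7-2 lay below the whole line, and the line exceeded CK-1 by less than 5 points in 2 libraries.

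At the other end were regions where CK and the line were nearly equal. Region chr9:16311232-16311253, upstream of OS09G0439800, had 52.3%, 33.3% and 60.0% in WYJ7, 94.6%, 86.5% and 96.8% in CK, and 84.3%, 100.0% and 93.7% in the line, a difference of 0.0467 points. Region chr4:21691576-21691584, upstream of OS04G0436000, had 31.3%, 30.7% and 21.2% in WYJ7, 71.7%, 36.4% and 74.4% in CK, and 54.9%, 69.9% and 57.4% in the line. Region chr2:4496741-4496798, upstream of OS02G0180700, had 67.3%, 66.5% and 51.8% in WYJ7, 91.0%, 82.1% and 90.5% in CK, and 89.1%, 87.0% and 88.2% in the line. In the first and the last every CK and line library was above every WYJ7 library and the CK and line ranges overlapped, and the equal means of the second were made up of a low CK-2 and high CK-1 and CK-3.

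The smallest differences among the regions hypomethylated in both were exact zeros. Upstream of OS01G0212700, chr1:6174245-6174252 had 6.67%, 41.6% and 15.2% in WYJ7 and 0% in all CK and line libraries. The unannotated region chr1:10868894-10868900 had 10.5%, 0% and 38.8% in WYJ7 and 0% in all others, and the intronic region chr1:11270058-11270077 of OS01G0304200 had 22.0%, 16.7% and 11.1% in WYJ7 and 0% in all others. In the first of these the mean of WYJ7 rested mainly on WYJ7-2 and in the second on WYJ7-3, while WYJ7-2 of the second was at 0 like CK and the line.

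Seen as a plane of CK level against line level, the regions of the same direction lay around the diagonal. The regions of opposite direction lay away from it, on 1 side or the other. The directions define these classes, so this position is largely set by the choice of regions. In the 79 regions hypomethylated in CK and hypermethylated in the line, the mean level was 42.2% ± 2.74 in WYJ7, 12.9% ± 4.51 in CK and 73.6% ± 0.771 in the line (SD, n = 3 libraries). The CK libraries were at 9.70%, 18.0% and 10.9%, with CK-2 the highest. CK was at 0 in all libraries in 27 regions, and the line at or above 80% in all libraries in 19. The difference of 60.7 points between the line and CK was fixed in sign by how these regions were chosen. The CK and line libraries did not overlap in 74 of the 79 regions and overlapped in 5, which is given as a description. Over all shared DMRs the line libraries were above CK in 24.2%. The smallest difference of means in the 79 was 35.7 points, which left little room for overlap.

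In the 15 regions hypermethylated in CK and hypomethylated in the line, the mean level was 35.4% ± 4.38 in WYJ7, 66.4% ± 7.11 in CK and 7.43% ± 0.447 in the line (SD, n = 3 libraries). The CK libraries were at 69.6%, 58.3% and 71.3%, with CK-2 the lowest, so that in both opposite classes CK-2 was the CK library nearest to WYJ7. The same held by smaller margins in the regions hypermethylated in both (CK at 69.3%, 68.2% and 70.3%). It also held in those hypomethylated in both (16.5%, 17.3% and 15.3%). CK-2 stood apart by at least 20 points in 24 of the 79 regions and in 7 of the 15, against at most 2 and 0 for the other CK libraries. The line was at 0 in all libraries in 9 of the 15 regions. In 13 there was no overlap between CK and the line, beside 5.53% of all shared DMRs with the line below CK. The smallest difference of means in the 15 was 34.5 points, so this too is a description.

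**Figure D3:**
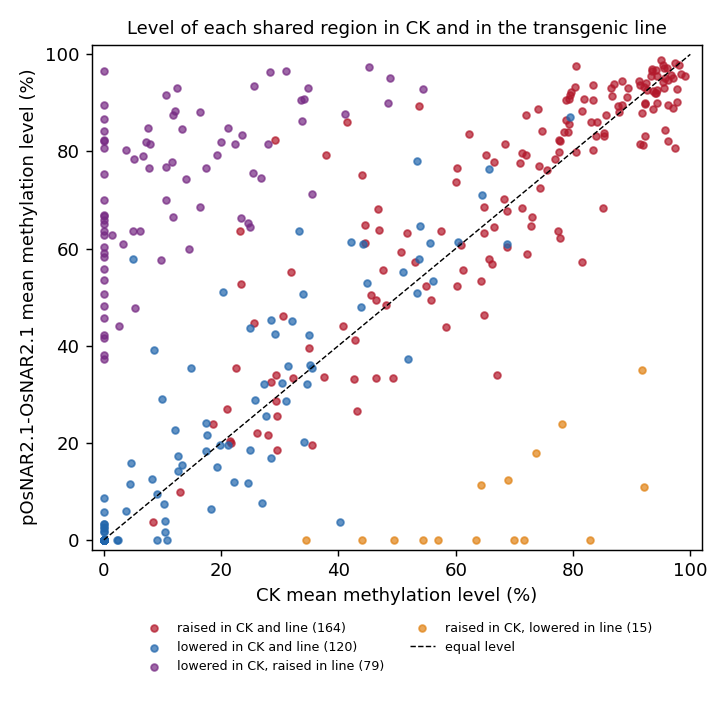
Mean methylation level (%) of each shared DMR in CK (x axis) and in pOsNAR2.1-OsNAR2.1 (y axis), 1 point per region, coloured by direction against WYJ7, with a dashed line at equal level. The 284 regions of the same direction lie around the dashed line, 20 of them with a difference of at least 20 points. The 79 regions hypomethylated in CK and hypermethylated in the line lie above the dashed line and the 15 of the reverse kind below it. The directions define these classes and largely set the positions.

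The opposite regions with the largest differences ran over most of the scale. In chr5:14473030-14473050, with no annotated feature, the WYJ7 libraries had 18.3%, 41.3% and 61.9%, the CK libraries 0%, 0% and 0%, and the line libraries 96.6%, 94.8% and 98.6%. Upstream of OS01G0868000, chr1:37591686-37591692 had 49.7%, 67.5% and 32.4% in WYJ7, 0% in all CK libraries and 93.2%, 87.7% and 87.8% in the line. Upstream of OS06G0645100, chr6:26325740-26325749 had 46.7%, 53.3% and 58.5% in WYJ7, 0% in all CK libraries, and 76.0%, 89.9% and 94.1% in the line. All 3 showed separate ranges for the 3 groups, with WYJ7 between.

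Region chr3:2350112-2350170, without a feature, had 56.9%, 16.5% and 29.6% in WYJ7, 0% in CK and 81.8%, 92.8% and 78.0% in the line. Region chr11:8276548-8276572, also without a feature, had 0%, 25.3% and 46.2% in WYJ7, 0% in CK, and 90.8%, 93.5% and 63.1% in the line. In the latter WYJ7-1 did not differ from CK, so its CK and WYJ7 ranges met at 0.

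Of the reverse kind, the unannotated region chr1:13167999-13168022 had 0%, 30.6% and 30.1% in WYJ7, 92.5%, 69.8% and 86.6% in CK, and 0% in all line libraries. Region chr10:14708046-14708069, without a feature, had 71.0%, 29.3% and 63.6% in WYJ7, 99.4%, 92.1% and 84.8% in CK, and 16.3%, 16.7% and 0% in the line. Region chr1:22803074-22803104, without a feature, had 43.3%, 17.7% and 44.8% in WYJ7, 71.4%, 81.7% and 61.7% in CK, and 0% in the line. CK lay above and the line below in every library of all 3, and only in the first did the line meet a WYJ7 library.

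An exon of OS12G0180600 held chr12:4061944-4061992, with 20.4%, 38.9% and 21.8% in WYJ7, 58.9%, 72.9% and 77.9% in CK, and 0% in the line. It was the only one of these 5 regions in an annotated feature. Region chr7:20199533-20199570 had 0%, 66.1% and 37.0% in WYJ7, 97.4%, 0% and 92.9% in CK, and 0% in the line. Its direction in CK rested on CK-1 and CK-3, while CK-2 was at 0 like the line (two-sided exact permutation p = 0.4).

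Regions rich in cytosines were few. Of the 11 shared DMRs with at least 10 cytosines in the CK list (2.89%, beside 3.77% of all CK DMRs and 3.50% of all line DMRs), 8 were hypomethylated in both (72.7%, beside 31.6% of all shared DMRs), 1 was hypermethylated in both and 2 had opposite directions. Of the 8, 4 lay close together in 1 stretch of chromosome 12 described below. The rest lay on chromosomes 2 and 7 and elsewhere on chromosome 12. The longest run of cytosines, 30 in the 168 bp of chr12:20660968-20661135, had 37.7%, 54.4% and 33.0% in WYJ7, 9.16%, 8.12% and 22.5% in CK, and 12.0%, 14.6% and 19.9% in the line. It lay in no annotated feature, and CK and the line overlapped below every WYJ7 library. The next, with 20 cytosines in the 308 bp of chr12:20618750-20619057 upstream of EPlOSAG00000045543, had 29.1%, 31.3% and 30.2% in WYJ7, 12.3%, 11.1% and 3.90% in CK, and 6.84%, 13.4% and 7.93% in the line. WYJ7 libraries agreed within 3 points there, and the means of CK and the line were 0.260 points apart.

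Upstream of OS08G0558000, chr8:27927389-27927437 held 16 cytosines and had 36.3%, 39.9% and 39.3% in WYJ7, 77.0%, 49.0% and 67.1% in CK, and 24.5%, 4.48% and 5.19% in the line. The intronic region chr1:14736973-14737020 of OS01G0361500, with 10 cytosines, had 56.3%, 55.8% and 76.3% in WYJ7, 40.9%, 40.9% and 41.5% in CK, and 87.2%, 90.0% and 85.7% in the line. These were the opposite regions among those with at least 10 cytosines, and in both the 3 groups had separate ranges.

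Upstream of EPlOSAG00000007914, chr7:17654469-17654586 had 15.1%, 45.7% and 5.65% in WYJ7 and 0% over 15 cytosines in all CK and line libraries. In chr2:31213131-31213162, with no feature, WYJ7 had 10.2%, 25.9% and 17.2%, and all CK and line libraries had 0% over 10 cytosines. Both kept some methylation in every WYJ7 library. Of the others, chr12:4677562-4677699 had 92.1%, 94.9% and 89.5% in WYJ7, 47.4%, 36.3% and 20.4% in CK, and 42.0%, 0% and 54.1% in the line over 14 cytosines. Region chr7:23277410-23277438, upstream of OS07G0575500, had 85.9%, 83.7% and 97.7% in WYJ7, 56.9%, 49.8% and 61.8% in CK, and 65.8%, 47.1% and 47.2% in the line. High wild-type levels stood against low to intermediate ones in CK and in the line, with line library 2 at 0 in the former region.

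A stretch of chromosome 12 held more shared DMRs than any other megabase. It was singled out after the values were seen. The 10 regions between positions 20137833 and 20844718 compared with at most 6 in any other megabase, and the same megabase held 60 CK DMRs and 29 line DMRs. Of the 10, 9 were hypomethylated in both and 1 hypermethylated in both, and 5 had at least 10 cytosines. The 9 hypomethylated regions had a mean of 43.3% ± 4.00 in WYJ7, 13.1% ± 2.96 in CK and 13.1% ± 3.71 in the line (SD, n = 3 libraries).

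Within it, chr12:20535074-20535112 had 43.2%, 54.7% and 43.0% in WYJ7, 21.6%, 23.4% and 18.7% in CK, and 12.8%, 25.1% and 20.5% in the line. Region chr12:20537300-20537349 had 33.0%, 49.6% and 39.9% in WYJ7, 6.38%, 7.35% and 10.8% in CK, and 7.05%, 13.3% and 17.6% in the line. Region chr12:20578873-20579038, upstream of EPlOSAG00000045609, had 59.1%, 48.0% and 40.3% in WYJ7, 26.8%, 25.7% and 0% in CK, and 6.73%, 14.2% and 34.2% in the line. In all 3 every CK and line library was below every WYJ7 library, and CK and the line overlapped.

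The first region of the stretch, chr12:20137833-20137864 in an intron of OS12G0517800, differed from the rest. It was at 0 in all CK and line libraries, but WYJ7 had 6.17%, 8.60% and 74.0%, so its wild-type mean came from WYJ7-3. The last, chr12:20844625-20844718 in an intron of OS12G0528801, was the hypermethylated one, with 51.0%, 63.3% and 57.2% in WYJ7, 84.9%, 75.1% and 91.9% in CK, and 80%, 82.1% and 87.5% in the line.

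By annotation, 175 shared DMRs (46.1%) lay in an upstream window of a gene (median window 2001 bp), 33 (8.68%) in introns, 19 (5.00%) in exons and 153 (40.3%) in none of these. Upstream windows held 41.8% of all CK DMRs and 45.1% of all line DMRs, introns 8.57% and 8.48%, and exons 5.25% and 5.37%. Upstream windows took 73 of the 164 regions hypermethylated in both, 58 of the 120 hypomethylated in both, 36 of the 79 low in CK and high in the line and 8 of the 15 of the reverse kind. The annotated regions fell on 226 genes, of which 133 carry OS identifiers and 93 EPlOSAG identifiers. The identifiers are given as deposited, because none of the 226 was matched to a gene name here.

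Only OS05G0113500 had 2 shared DMRs, both upstream and hypomethylated in both groups. Its region chr5:722522-722539 had 95.1%, 92.2% and 100.0% in WYJ7, 24.5%, 45.5% and 35.0% in CK, and 22.2%, 47.9% and 56.6% in the line. Its region chr5:722567-722582 had 100.0%, 96.4% and 100.0% in WYJ7, 25.1%, 27.2% and 35.0% in CK, and 10.0%, 56.2% and 60.7% in the line. Nearly full wild-type methylation stood against partial methylation in CK and the line, with line library 1 the lowest of the 6 in both regions. There were 4 pairs of neighbouring shared DMRs within 1 kb, and the regions of each pair had the same pair of directions.

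Of the 5 exonic regions with the largest summed difference from WYJ7, 2 were hypermethylated in both, 2 were hypomethylated in both, and the region of OS12G0180600 described above had opposite directions. In EPlOSAG00000050507, chr8:19942109-19942123 had 67.8%, 51.5% and 31.0% in WYJ7, 93.6%, 89.0% and 94.4% in CK, and 90.1%, 94.1% and 85.7% in the line. In OS07G0156200, chr7:3011587-3011637 had 45.3%, 68.7% and 63.8% in WYJ7, 70.8%, 81.0% and 89.9% in CK, and 97.4%, 96.2% and 99.4% in the line. CK and the line overlapped in the former, and in the latter the line was above every CK library by 17.1 points in the mean.

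In OS01G0126401, chr1:1445638-1445679 had 63.3%, 53.0% and 33.8% in WYJ7, 17.5%, 16.3% and 18.5% in CK, and 33.3%, 20% and 18.6% in the line. The lowest line library and the highest CK library were nearly equal, although the ranges did not overlap. In EPlOSAG00000044969, chr6:22492870-22492908 had 97.3%, 85.1% and 87.4% in WYJ7, 59.2%, 65.2% and 56.8% in CK, and 46.8%, 76.1% and 60.8% in the line, where the wider line range enclosed that of CK.

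Both CpH regions had the same direction in CK and the line. Region chr11:141152-141176, upstream of OS11G0103550, had 0%, 11.9% and 8.11% in WYJ7, 24.6%, 20.4% and 19.8% in CK, and 28.0%, 17.1% and 14.8% in the line. Region chr1:12889004-12889021, upstream of EPlOSAG00000006395, had 13.0%, 27.0% and 23.8% in WYJ7 and 0% in all CK and line libraries. WYJ7 was below every other library in the former and above every other in the latter. CpH regions were 0.526% of the shared DMRs, beside 3.12% of all CK DMRs and 2.57% of all line DMRs.

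The wild type itself varied more in the shared DMRs than in the lists they came from. The median SD of the 3 WYJ7 libraries was 10.9 points, beside 5.30 over all CK DMRs and 7.24 over all line DMRs. The WYJ7 libraries spanned at least 20 points in 201 shared DMRs (52.9%), beside 26.5% and 36.0%. The WYJ7 mean lay between 20% and 80% in 72.9% of the shared DMRs, beside 44.9% and 57.3%. These are descriptions, since WYJ7 entered both calls, and the part of this spread in the shared calls was not tested. With only the 179 regions whose WYJ7 libraries spanned less than 20 points, 74 were hypermethylated in both, 64 hypomethylated in both, 35 low in CK and high in the line and 4 of the reverse kind.

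Replicates of CK were closer in the shared DMRs than in the CK list. The median SD of the 3 CK libraries was 7.24 points in the shared DMRs and 14.7 over all CK DMRs, and for the line it was 5.70 and 7.15. Without CK-1, CK-2 or CK-3 the median SD of CK in the shared DMRs was 6.05, 2.39 or 5.53 points. Without library 1, 2 or 3 of the line that of the line was 3.83, 4.28 or 3.78, each over the 2 libraries left. Among the 284 regions of the same direction, the SD of CK was larger than that of the line in 149, smaller in 91 and equal in 44. The 44 were at 0 in all 6 CK and line libraries, and the 40 at 80% or above in all 6 left little room for spread. No test was made, because these libraries took part in the choice of the regions.

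The SDWT list, which shares the WYJ7 libraries, held 63 of the 380 regions (16.6%), which were 2.31% of its 2731 DMRs. Levels of SDWT were read only in these, so regions where SDWT was not called different from WYJ7 were left out. Over the whole SDWT list 51.6% of the regions were above WYJ7 and 48.0% below. All 3 lists set their group against the same WYJ7 libraries, so directions they share are given side by side and not as independent evidence. Of the 29 that were hypermethylated in both CK and the line, 26 were hypermethylated and 3 hypomethylated in SDWT, with mean levels of 43.8% ± 2.98 in WYJ7, 73.7% ± 3.12 in CK, 80.3% ± 0.119 in the line and 65.2% ± 2.303 in SDWT (SD, n = 3 libraries). Of the 20 hypomethylated in both, 19 were hypomethylated in SDWT and 1 was hypermethylated, with mean levels of 27.8% ± 5.91, 2.05% ± 0.864, 1.82% ± 0.242 and 4.94% ± 0.409 in the same order.

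Where CK and the line went opposite ways, SDWT lay on either side of WYJ7. Its list holds only regions called different from WYJ7, but a listed region could still have a group mean near that of WYJ7. Of 13 such regions low in CK and high in the line, SDWT was below WYJ7 in 7 and above in 6, and the mean levels were 30.3% ± 0.881 in WYJ7, 6.39% ± 3.47 in CK, 68.9% ± 0.588 in the line and 29.0% ± 1.11 in SDWT. At chr3:30926724-30926741 the means of SDWT and WYJ7 were only 7.68 points apart. SDWT had 38.3%, 63.5% and 89.5% there, and WYJ7 had 64.2%, 37.8% and 66.3%. Over the 13 regions, the SDWT mean near that of WYJ7 hid 2 extremes. At chr1:37591686-37591692, described above with CK at 0 and the line near 90%, SDWT had 6.50%, 0% and 0%.

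Upstream of OS03G0353500, chr3:13289179-13289210 had a mean of 42.1% in WYJ7, 7.14% in CK and 81.8% in the line, and SDWT had 82.1%, 83.9% and 80.2%. SDWT thus lay with CK in the former region and with the transgenic line in the latter. In an intron of OS09G0279400, chr9:5869358-5869365 had a mean of 19.8% in WYJ7, 0% in CK and 82.1% in the line, and SDWT had 0% in all libraries. The region of the reverse kind that SDWT also held was chr2:12151989-12151999. It had 75.1%, 0% and 0% in WYJ7, 69.6%, 14.7% and 78.8% in CK, 0% in the line, and 25.4%, 65.6% and 58.1% in SDWT. Its WYJ7 mean of 25.0% rested on WYJ7-1 alone, which lay above every SDWT library, so the directions there depend on that library. These regions other than chr1:37591686-37591692 were chosen for the text after their values were seen.

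**Figure D4:**
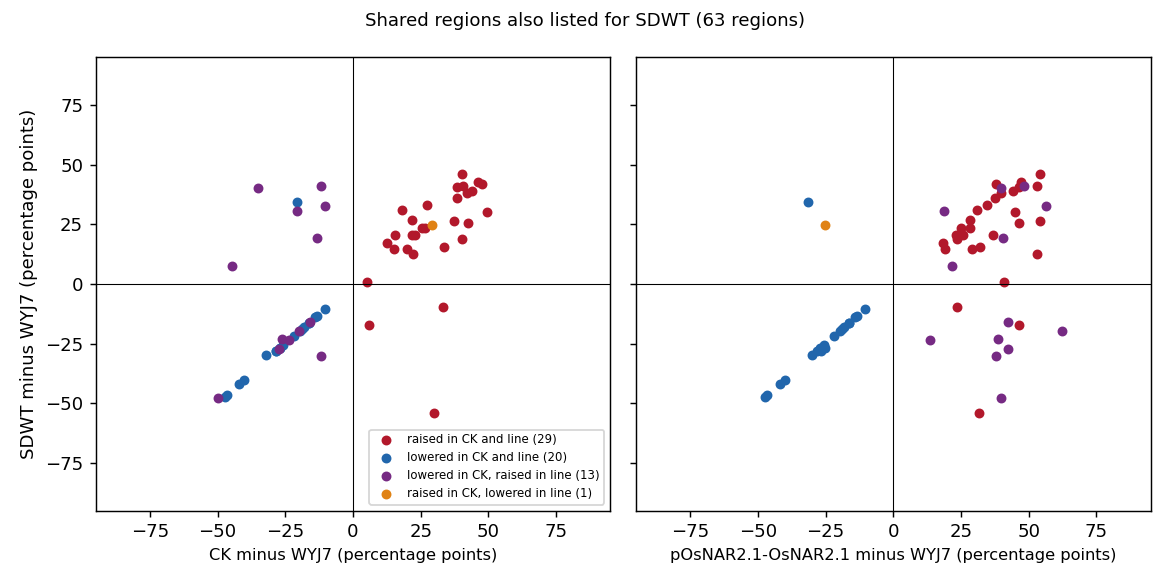
Difference from WYJ7 (percentage points) in SDWT against that in CK (left) and in pOsNAR2.1-OsNAR2.1 (right) for the 63 shared DMRs also held by the SDWT list, 1 point per region, coloured by direction in CK and the line. In the regions hypermethylated in both, 26 of 29 are above 0 in SDWT, and in those hypomethylated in both, 19 of 20 are below 0, while the 13 regions low in CK and high in the line lie on both sides. The SDWT list holds only regions called different from WYJ7.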

How the data were processed

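Shoot DNA of 12 rice WGBS libraries was analysed, 3 each of WYJ7, CK, pOsNAR2.1-OsNAR2.1 and SDWT. The authors mapped reads to IRGSP-1.0 with Bismark 0.9.0, kept uniquely mapped reads, dropped poorly covered cytosines and tested each group against WYJ7 for DMRs. The deposited levels are in percent, the mean over the cytosines of a region in each library, not normalized between libraries and without read counts, so depth and counting error are unknown. The authors' difference, p-value, q-value and direction columns were not used. MeDIP samples (3) were not analysed here.

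Regions were joined on chromosome, start, end and class with Python 3.11.15 and pandas 2.3.3. Directions are signs of differences of group means, taken without a minimum size. CK and the line were compared by mean ± SD over libraries, by overlap of the 3 and 3 libraries, and by a two-sided exact permutation test. The directions, the overlap and the joining of regions were tested on simulated data, and the permutation test only on small sets of values written by hand. Counts of libraries at 0, at or above 80% or standing apart by 20 points, the megabase counts and the class without direction were set after the values were seen.

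Regions named were, for each same-direction class, the 5 largest differences without overlap and the 3 smallest, the 5 largest of each opposite class, the 10 richest in cytosines among those with at least 10, the CpH regions, and 5 exonic regions by summed difference from WYJ7. Others were chosen after their values were seen. The members and lists were chosen with earlier results of these data known. Alternatives changed the match, the minimum number of cytosines, the class, merging, the minimum difference, the summary over regions and the libraries used.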

Additional observations from a re-analysis of the deposited data

Results flagged for a closer look

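In 72 of the 94 regions of opposite direction, every CK library lay on one side of the WYJ7 mean and every line library on the other, 62 with CK below and 10 with CK above. The opposite movement was fixed by how these regions were chosen, and the difference was not tested. Of the regions named in the text, the line exceeded CK by 96.7 points (chr5:14473030-14473050), 89.5 points (chr1:37591686-37591692), 86.7 points (chr6:26325740-26325749), 84.2 points (chr3:2350112-2350170) and 82.5 points (chr11:8276548-8276572). The line minus CK difference was -82.9 points at chr1:13167999-13168022, -81.1 points at chr10:14708046-14708069, -71.6 points at chr1:22803074-22803104 and -69.9 points at chr12:4061944-4061992.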

How the results depend on the processing

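Counts are given in the order hypermethylated in both, hypomethylated in both, low in CK and high in the line, and the reverse. They were 164, 120, 79 and 15, and became 39, 27, 12 and 2 with at least 5 cytosines, 1, 8, 1 and 1 with at least 10, and 52, 45, 13 and 2 with at least 30 points from WYJ7 in each list. Among alternatives added after seeing the data, 74, 64, 35 and 4 remained where the WYJ7 libraries spanned under 20 points, and the opposite classes held 42 and 9 with at least 20 points in both. Leaving out any 1 library, also added later for these counts, gave 159 to 164, 120 to 122, 77 to 83 and 14 to 16.

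The line minus CK mean of 2.35 points in regions hypermethylated in both was 0.77 with at least 5 cytosines, -0.75 with at least 10 (1 region), 3.83 as the difference of the library medians (the median of the regional differences was 1.30), and 0.0634 to 3.05 with a library left out, the lowest without CK-2. In regions hypomethylated in both, 2.38 points became 3.68 with any overlap, 3.91 with 50% reciprocal overlap, 1.28 with at least 5 cytosines, -0.48 with at least 10 (8 regions), 4.19 with at least 30 points, 4.47 where WYJ7 spanned under 20 points, and 1.84 to 3.21 with a library left out. The cause was not tested.

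The 18 regions with the line above CK became 34 with any overlap, 31 with reciprocal overlap, 3 and 0 with at least 5 and 10 cytosines, 5 with at least 30 points, 8 where WYJ7 spanned under 20 points and 29 to 35 with a library left out. The 7 below became 12 with any overlap, 2 and 0 with at least 5 and 10 cytosines, 2 with at least 30 points, 4 with at least 20 points and 13 to 28 with a library left out. The median SD of 7.24 in CK became 2.39 to 6.05 with a CK library left out. That of 5.70 in the line became 3.78 to 4.28 with a line library left out. Fewer regions or libraries enter most of these settings by construction. Same-numbered libraries of CK and the line did not deviate together (r = 0.0866, -0.0101 and -0.0097), so numbers do not pair them. With the number as a block, all 3 pairs had the line above in 40 regions and below in 21. The other 121 values stayed within 1.5 times the count or median SD, or within 1 SD of the mean, and 55 moved beyond. None of these results has a test whose call could be lost.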

Other observations

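The share of regions of the same direction differed between chromosomes as a description, from 57.9% of the 19 shared DMRs of chromosome 11 to 92.0% of the 25 of chromosome 12, and chromosome 12 included the 10 regions of the stretch described above. Shared DMRs made up 7.69% of the line DMRs on chromosome 3 and 15.5% on chromosome 5.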
